A study of Homo sapiens with 15 samples.

Results

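The 10 genes described here encode intermediate filament proteins, and they were taken as a list of names from the 19684 genes of the deposited tables: the cytoplasmic filament genes VIM, NES, GFAP, SYNM, DES, KRT8, KRT18 and KRT19 and the nuclear lamin genes LMNA and LMNB1. No measured value entered the rule, and all 10 names were found in the tables. The 15 libraries were poly(A)-selected RNA-seq of the human line BC1-GFP, an induced pluripotent stem cell line labelled WT for genotype in every group, with 3 libraries in each of 5 groups. The first group was the undifferentiated line (hiPSC), grown on Matrigel in mTeSR1 medium. The next groups were neural retina layers cut from retinal organoids (RO) at day 70 (D70-RO) and day 150 (D150-RO) of differentiation, each library pooling several organoids. The last groups were cells labelled Müller glia (iMGC), grown out of dissociated D150-RO neural retina in a serum-containing medium on Matrigel without a sorting step, and taken on day 5 of passage 1 (P1) or day 5 of passage 5 (P5). All groups therefore descend from 1 stem cell line, the organoid groups hold mixed cell types, and the iMGC groups hold whatever cells of the organoids survived plating.

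Intermediate filaments are rope-like polymers whose building blocks change with cell type: simple epithelia and pluripotent cells use obligate pairs of a type I and a type II keratin, mesenchymal and glial cells use the type III protein vimentin, and muscle adds desmin. Nestin and synemin are large proteins that do not form filaments alone and join vimentin, desmin or GFAP, and in the retina the radial processes of Müller glia are filled with vimentin, with GFAP added under stress. The lamins line the inner nuclear membrane, where LMNB1 is common in dividing and neural cells and LMNA is abundant in stiff, spread or mechanically loaded cells.

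Each library held 11349600 to 20398755 expected counts (median 17194154), and D70-RO replicate 2 was the shallowest. Levels are given as FPKM, fragment counts scaled for transcript length and library size, which can be compared between genes because it is per length. Group differences are log2 fold changes from expected counts, fitted with the quasi-likelihood test of edgeR and adjusted by Benjamini-Hochberg over all genes tested, and a gene rose or fell where the adjusted p was under 0.05 and the change at least 2-fold. The scales are not the same: on log2(FPKM + 1) the median of all tested genes lay at -0.61 between iMGC and D150-RO, at -0.35 between iMGC and hiPSC and at 0.27 between D150-RO and hiPSC, against -0.05, -0.06 and -0.02 with the scaled counts. The ± value of a log2 fold change is an approximate standard error. It was computed as the size of the change over the square root of the F statistic of the test. It is not reliable where a group holds few counts. Pluripotent cell markers summed to between 3161 and 3344 FPKM in hiPSC and to at most 8.96 elsewhere, and photoreceptor markers to between 675 and 681 FPKM in D150-RO. In the iMGC groups 6 Müller glia markers summed to 17.6 to 20.5 FPKM, against 201 to 215 in D150-RO, with AQP4 at 0 and RLBP1, which encodes the retinaldehyde-binding protein of Müller glia, at 0.09 FPKM or less, against 29.6 to 36.9 in D150-RO, where AQP4 was itself under 1 FPKM. GLUL and SOX9 reached 1 FPKM in both iMGC groups, at means of 13.4 and 5.21 FPKM in P1 and 14.6 and 3.59 in P5. Of these groups SLC1A3 reached it in P5 only, at 1.12 to 1.23 FPKM, against 0.36 to 0.39 in P1. All 5 tested markers of this list fell in iMGC against D150-RO, beside 23.8% of all genes. RLBP1 and KCNJ10 were tested there through their level in D150-RO alone. In bulk libraries such as these, fewer cells of a type and less RNA per cell cannot be told apart.

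The filament genes fell into contrasting courses. The 3 keratin genes were high in hiPSC, low in the organoids and partly restored in P1 iMGC; VIM was lowest in hiPSC and high in every later group; NES, SYNM and GFAP peaked in D150-RO; and LMNA was highest in iMGC, where LMNB1 was lowest. From hiPSC to D70-RO, 9 of the 10 genes passed the filter of at least 1 FPKM in 3 of the libraries compared, and 7 changed, beside 43.5% of all genes tested; 2 rose, beside 22.5% of all genes, and 5 fell, beside 21.1%. From hiPSC to D150-RO all 10 passed, and 8 changed, beside 58.8% of all genes; 3 rose, beside 29.8%, and 5 fell, beside 29.0%. Between the organoid ages 7 of 9 changed, beside 33.3% of all genes, with 3 higher at day 150, beside 16.6%, and 4 lower, beside 16.7%. The comparison of the 6 iMGC libraries with D150-RO had all 10 tested and called, beside 44.5% of all genes, with 6 higher in iMGC, beside 20.8%, and 4 lower, beside 23.8%. There GFAP passed the filter through D150-RO alone, and DES and KRT19 through iMGC alone. Passing in this way goes together with a call in that direction, so these calls are not separate evidence. The same holds for SYNM in each comparison with hiPSC, and for DES in the organoids against hiPSC. It also holds for KRT19 in D150-RO against hiPSC and against D70-RO. Between the organoid ages GFAP met the filter through D150-RO, with only D70-RO replicate 3 above 1 FPKM. The same limit applies to each gene of the marker and further lists that stayed under 1 FPKM in every library of a group compared. Against hiPSC, 7 of 9 differed in iMGC, beside 56.0% of all genes, with 4 higher, beside 27.0%, and 3 lower, beside 28.9%. Between passages 3 of 9 changed, beside 2.92% of all genes, with 0 higher at P5, beside 1.94%, and 3 lower, beside 0.977%. The median of the log2 fold changes over the tested filament genes was -1.01 at day 70 against hiPSC, where that of all genes was 0.02, and 2.12 in iMGC against D150-RO, where that of all genes was -0.05. These comparisons share libraries: hiPSC serves in 3 of them and D150-RO in 3, so their results are not independent of each other.

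**Figure D1:**
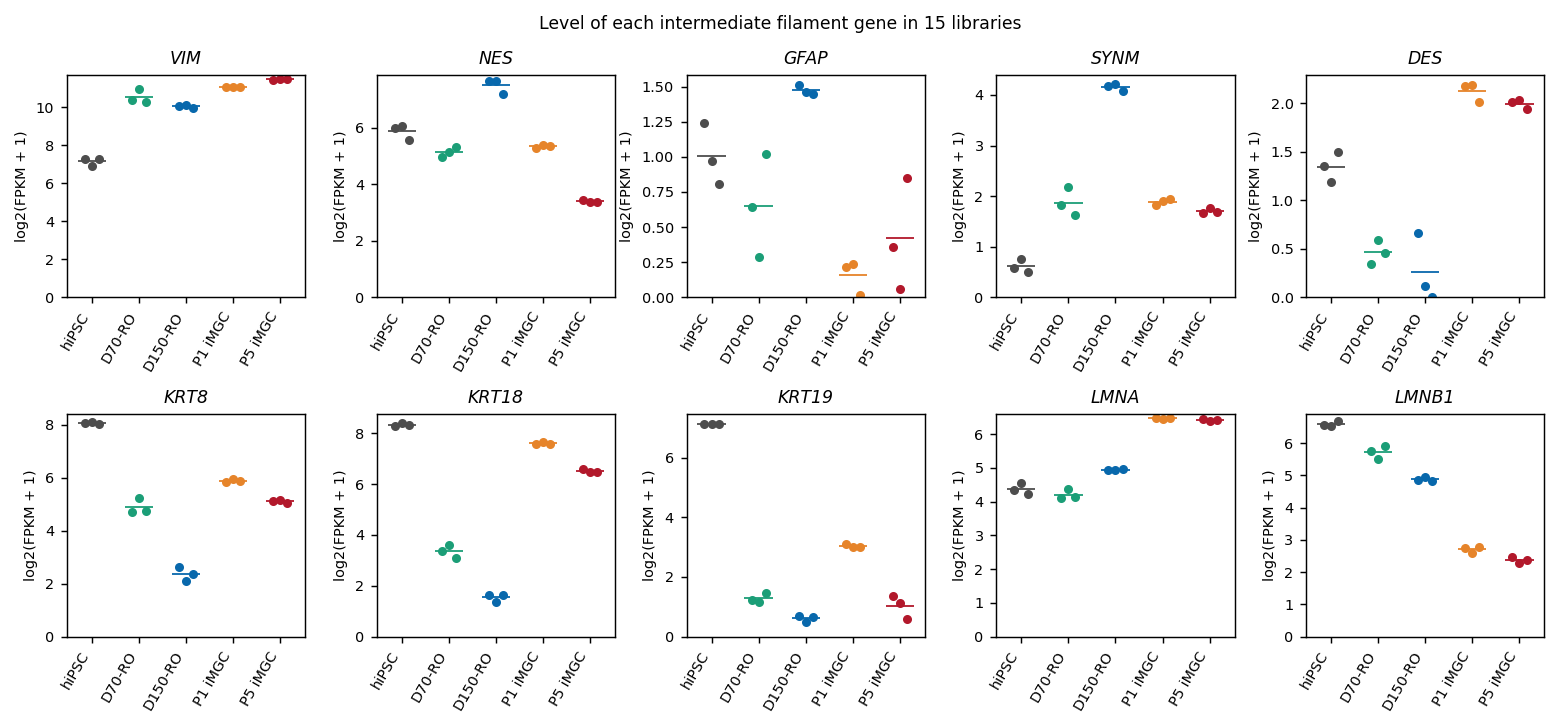
Each panel plots 1 gene, with log2(FPKM + 1) on the vertical axis from 0 and the 5 groups on the horizontal axis; points are libraries and lines are group means, and the vertical scale differs between panels. The keratin panels dip in the organoid groups, the NES and SYNM panels peak at D150-RO, and from D70-RO to P1 iMGC the LMNA means rise while those of LMNB1 fall.

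**Figure D2:**
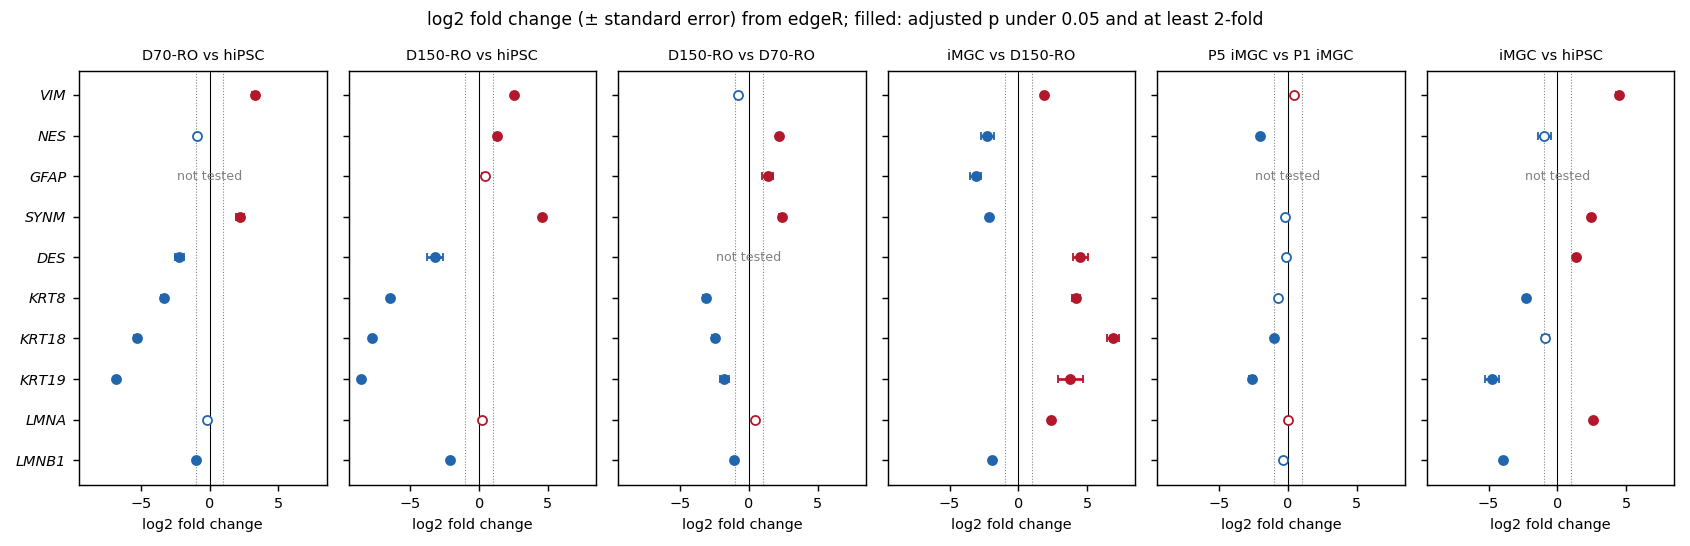
Each panel is 1 comparison, with the log2 fold change on the horizontal axis. Bars give an approximate standard error, the size of the log2 fold change over the square root of the edgeR F statistic. Filled points passed the adjusted p and the 2-fold limit, open points did not, and dotted lines mark a 2-fold change. All 10 points are filled for iMGC against D150-RO and 3 are filled for P5 against P1.

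VIM encodes vimentin, the type III filament protein of mesenchymal cells, radial glia and Müller glia, and it was the most abundant of the 10 genes in every group but hiPSC. The gene lies on chromosome 10 from 17228259 to 17237593 on the plus strand (GRCh38, GENCODE 29). Its level was 154, 120 and 152 FPKM in hiPSC, 1333, 2027 and 1245 in D70-RO, and 1073, 1136 and 985 in D150-RO. It was 2157, 2181 and 2141 FPKM in P1 iMGC and 2802, 2870 and 2901 in P5 iMGC. No group overlapped its neighbour in the order hiPSC, D150-RO, D70-RO, P1 iMGC and P5 iMGC. VIM rose 9.95-fold by day 70 (log2 fold change 3.31 ± 0.21 SE, adjusted p = 1.05e-07) and was 5.87-fold higher than hiPSC at day 150. The difference between the organoid ages, -0.76 ± 0.19 (adjusted p = 0.00565), stayed under the 2-fold limit. In iMGC it rose a further 3.72-fold over D150-RO (1.90 ± 0.14, adjusted p = 1.47e-07), and it lay 1.38-fold above P1 at P5 (0.47 ± 0.03, adjusted p = 1.18e-10), again under the limit. VIM reads made up 0.0264% ± 0.0035 (SD, n = 3) of all expected counts in hiPSC and 0.534% ± 0.009 (SD, n = 3) in P5 iMGC.

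DES encodes desmin, the type III filament of muscle, and stayed low in all groups, though it was highest in iMGC. The gene lies on chromosome 2 from 219418377 to 219426739 on the plus strand. Its level was 1.55, 1.27 and 1.83 FPKM in hiPSC, 0.27, 0.51 and 0.37 in D70-RO, and 0.58, 0.08 and 0 in D150-RO. It was 3.52, 3.55 and 3.04 FPKM in P1 iMGC and 3.02, 3.08 and 2.85 in P5 iMGC. The iMGC libraries lay above all others, P1 and P5 overlapped, and so did D70-RO and D150-RO. DES fell by 2.20 ± 0.32 on the log2 scale to day 70 (adjusted p = 7.11e-05), and it rose in iMGC by 4.52 ± 0.54 over D150-RO (adjusted p = 8.25e-06) and by 1.34 ± 0.15 over hiPSC (adjusted p = 2.67e-06). The D150-RO baseline is thin, with 23 expected counts in 3 libraries, and the iMGC difference ran from 3.80 to 6.68 as single libraries were left out, the largest value coming without D150-RO replicate 1. Against hiPSC the day 150 value was -3.20 ± 0.58, and -5.32 without that library. Contractile cell markers moved alongside: 5 of them summed to between 2186 and 2629 FPKM in iMGC, against 9.32 to 11.7 in D150-RO and 112 to 139 in hiPSC. In iMGC 4 of the 5 rose in both comparisons, beside 20.8% of all genes over D150-RO and 27.0% over hiPSC. ACTA2 rose by 8.45 ± 0.15 and CNN1 by 8.43 ± 1.33 log2 units over D150-RO. CNN1 stood on 16 expected counts in D150-RO, at 0.12 to 0.33 FPKM. It met the filter there through iMGC alone, so its call is not separate evidence. MYH11, the myosin of mature smooth muscle, stayed under 1 FPKM in every library. Between passages CNN1 fell by 2.64 ± 0.06 and MYL9 by 1.60 ± 0.05 on the log2 scale, with DES at -0.11 ± 0.13 (adjusted p = 0.578). Their part in the DES result was not tested.

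GFAP encodes the type III filament of astrocytes and of stressed Müller glia, and it was close to the detection limit throughout. The gene lies on chromosome 17 from 44903161 to 44916937 on the minus strand. Its level was 1.36, 0.96 and 0.75 FPKM in hiPSC, 0.56, 0.22 and 1.03 in D70-RO, and 1.85, 1.76 and 1.73 in D150-RO. It was 0.16, 0.18 and 0.01 FPKM in P1 iMGC and 0.28, 0.04 and 0.80 in P5 iMGC. D150-RO stood above all other libraries, while hiPSC, D70-RO and P5 iMGC each overlapped the next group down. GFAP rose by 1.37 ± 0.38 from day 70 to day 150 (adjusted p = 0.00944) and fell by 3.11 ± 0.38 on the log2 scale in iMGC (adjusted p = 1.12e-05). The first of these calls is lost when the null is a 2-fold change in place of none (adjusted p = 0.24). GFAP met the filter of that comparison through D150-RO, as only D70-RO replicate 3 reached 1 FPKM. That rise is therefore not separate evidence. The day 150 difference from hiPSC was 0.44 ± 0.22 (adjusted p = 0.0784), and the other 3 comparisons were not tested because too few libraries reached 1 FPKM. All 6 iMGC libraries together held 35.7 expected counts of GFAP, and their ratio of counts to FPKM was unsteady, with 9.26 counts giving 0.80 FPKM in P5 replicate 3 and 1.38 counts giving 0.01 FPKM in P1 replicate 3. The opposite-strand genes CCDC103 and FAM187A overlap GFAP and were also highest in D150-RO, at means of 2.16 and 2.20 FPKM; whether counting used strand is not given in the sources used here, so reads of the overlapping genes cannot be told apart. Of 5 astrocyte markers, GFAP among them, none reached 1 FPKM in any iMGC library.

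NES and SYNM encode nestin, the large filament partner of neural progenitors, and synemin, a partner of vimentin and desmin that anchors filaments to membrane complexes. Both peaked in D150-RO, by different margins. RefSeq promoter sequences of GRCh38.p14, 250 bases before to 50 after a transcript start, were available for 6 of the 10 genes, 4 of them with a single entry. Those of NES and SYNM, which both rose from D70-RO to D150-RO and fell in iMGC but parted in other comparisons, are shown with that of VIM, and capitals mark GGGCGG, the core GC box letters bound by Sp-type factors, or its reverse complement CCGCCC. The NES window is chr1:156677358-156677657 on the minus strand, the SYNM window chr15:99104830-99105129 on the plus strand and the VIM window chr10:17227991-17228290 on the plus strand.
NES: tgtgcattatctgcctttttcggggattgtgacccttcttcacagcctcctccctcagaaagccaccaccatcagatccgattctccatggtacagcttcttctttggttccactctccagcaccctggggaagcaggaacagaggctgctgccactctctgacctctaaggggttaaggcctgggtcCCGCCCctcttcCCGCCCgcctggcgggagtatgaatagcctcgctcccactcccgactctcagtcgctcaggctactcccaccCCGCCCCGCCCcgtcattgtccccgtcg
SYNM: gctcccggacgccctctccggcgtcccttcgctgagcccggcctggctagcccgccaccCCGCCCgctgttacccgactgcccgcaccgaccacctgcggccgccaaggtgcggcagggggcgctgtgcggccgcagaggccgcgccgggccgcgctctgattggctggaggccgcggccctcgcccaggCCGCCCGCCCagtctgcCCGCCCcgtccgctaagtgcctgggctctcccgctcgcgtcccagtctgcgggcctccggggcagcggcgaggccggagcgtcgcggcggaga
VIM: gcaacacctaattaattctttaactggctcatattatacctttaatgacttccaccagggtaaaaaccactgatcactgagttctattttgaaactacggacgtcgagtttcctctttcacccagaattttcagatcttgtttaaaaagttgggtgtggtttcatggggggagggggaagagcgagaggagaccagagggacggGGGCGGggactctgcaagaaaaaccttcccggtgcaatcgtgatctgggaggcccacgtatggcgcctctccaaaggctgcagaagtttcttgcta
Counting both strands and overlapping matches, GGGCGG occurred 4 times in the NES and 4 times in the SYNM window and 1 time in that of VIM, and 45.0% of 35116 promoter windows of the same length hold at least 1. TATAAA was absent from all 3 (11.5% of windows hold it), as was TGANTCA (7.71%), and CCAAT occurred only in the SYNM window, 1 time (34.6%). The SYNM window had 79.0% G and C and 43 CG pairs, NES 60.3% and 14, and VIM 48.0% and 10, beside medians of 58.7% and 14 over all windows. These matches describe letters and not binding.

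NES was an intermediate gene in hiPSC, lower in D70-RO and highest in D150-RO. It lies on chromosome 1 from 156668763 to 156677397 on the minus strand. Its level was 62.3, 66.1 and 45.7 FPKM in hiPSC, 30.3, 34.1 and 38.8 in D70-RO, and 198, 201 and 144 in D150-RO. It was 38.1, 41.0 and 39.6 FPKM in P1 iMGC and 9.82, 9.44 and 9.31 in P5 iMGC. Only P1 iMGC and D70-RO overlapped among neighbours in the order, and P5 iMGC was lowest. NES rose 4.52-fold between the organoid ages (2.18 ± 0.15, adjusted p = 3.60e-06), and its value against hiPSC was -0.89 ± 0.16 at day 70, short of the 2-fold limit (-1.12 and called with the length trend removed or without hiPSC replicate 3), and 1.28 ± 0.16 at day 150 (adjusted p = 6.99e-06), a rise. The day 150 value fell to 0.47 and lost its call when a trend of fold change on effective gene length was removed. In iMGC NES fell by 2.25 ± 0.48 on the log2 scale against D150-RO (adjusted p = 0.001), which splits into -1.55 ± 0.10 for P1 and -3.55 ± 0.11 for P5. It was the member with the lowest adjusted p between passages, with a fall by 1.99 ± 0.05 on the log2 scale at P5 (adjusted p = 2.69e-20). Against hiPSC the 6 iMGC libraries differed by -0.96 ± 0.48 (adjusted p = 0.0805); P1 alone differed by -0.28 ± 0.12 (adjusted p = 0.0545), while P5 alone fell by 2.27 ± 0.14 on the log2 scale (adjusted p = 6.82e-09). The pooled comparison also passed without P1 replicate 2 (-1.16, adjusted p = 0.0405) or P1 replicate 3 (-1.14, adjusted p = 0.0451), in 1 fit of all 15 libraries (-1.28), with limma on log2(FPKM + 1) (-1.50) or log2(FPKM + 0.1) (-1.56) and with the length trend removed (-1.64).

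SYNM was nearly silent in hiPSC and reached its peak in D150-RO. It lies on chromosome 15 from 99098217 to 99135593 on the plus strand. Its level was 0.49, 0.69 and 0.41 FPKM in hiPSC, 2.54, 3.52 and 2.07 in D70-RO, and 17.1, 17.6 and 16.0 in D150-RO. It was 2.53, 2.72 and 2.86 FPKM in P1 iMGC and 2.18, 2.38 and 2.20 in P5 iMGC. D70-RO overlapped both iMGC passages, and D150-RO stood above every other library. SYNM rose by 2.21 ± 0.26 to day 70 (adjusted p = 1.41e-05) and by a further 2.40 ± 0.18 to day 150 (adjusted p = 4.68e-06), a 24.2-fold rise over hiPSC. In iMGC it fell by 2.14 ± 0.07 on the log2 scale against D150-RO (adjusted p = 1.26e-10) and was still 5.55-fold above hiPSC (2.47 ± 0.16, adjusted p = 1.77e-08). The passages differed by -0.18 ± 0.09 (adjusted p = 0.139). Relative to vimentin in the same library, the FPKM of SYNM was 0.0159 ± 0.0004 (SD, n = 3) in D150-RO and 0.00079 ± 0.00004 (SD, n = 3) in P5 iMGC, and that of NES was 0.169 ± 0.020 and 0.00333 ± 0.00015.

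The keratin genes of simple epithelia gave the widest swings of the set. KRT8 encodes the type II partner and KRT18 the type I partner of the pair laid down first in the embryo, and KRT19 is a further type I keratin of simple epithelia. KRT8 lies on chromosome 12 from 52897187 to 52949954 on the minus strand and overlaps by 1084 bases KRT18, from 52948871 to 52952901 on the plus strand. KRT19 lies on chromosome 17 from 41523617 to 41528308 on the minus strand. GENCODE 29 names 50 pseudogenes after KRT8, 67 after KRT18 and 5 after KRT19, none of which is in the tables, so reads could be split between copies and these counts are less certain than those of the other members.

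KRT8 measured 265, 276 and 261 FPKM in hiPSC, 24.8, 36.6 and 25.5 in D70-RO, and 5.14, 3.24 and 4.08 in D150-RO. It was 57.0, 60.9 and 57.7 FPKM in P1 iMGC and 34.0, 34.9 and 32.3 in P5 iMGC. Only P5 iMGC and D70-RO overlapped. KRT8 fell by 3.34 ± 0.18 on the log2 scale to day 70 and by another 3.12 ± 0.21 to day 150, and rose 18.2-fold in iMGC over D150-RO (4.19 ± 0.27, adjusted p = 3.76e-08). It remained lower in iMGC than in hiPSC, by -2.26 ± 0.19 (adjusted p = 1.57e-07), and the passages differed by -0.73 ± 0.05 (adjusted p = 2.23e-11), under the 2-fold limit.

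KRT18 measured 313, 340 and 320 FPKM in hiPSC, 9.26, 11.2 and 7.51 in D70-RO, and 2.12, 1.60 and 2.09 in D150-RO. It was 188, 202 and 192 FPKM in P1 iMGC and 95.4, 87.3 and 88.9 in P5 iMGC. No group overlapped its neighbour in the order hiPSC, P1 iMGC, P5 iMGC, D70-RO and D150-RO. KRT18 fell by 5.31 ± 0.17 on the log2 scale to day 70 (adjusted p = 1.10e-09) and by 2.48 ± 0.22 more to day 150, and it rose 118-fold in iMGC over D150-RO (6.88 ± 0.44, adjusted p = 3.46e-08). At P5 it lay below P1 by -1.04 ± 0.04 (adjusted p = 6.80e-16), a call that ends with that stricter null (adjusted p = 1.0). Its iMGC level came nearer to that of hiPSC than those of KRT8 and KRT19, with a difference of -0.89 ± 0.26 (adjusted p = 0.00682) that stayed under the limit over the 6 libraries, while P5 alone was -1.49 ± 0.08 and P1 alone -0.46 ± 0.07. The pooled difference passed the limit without hiPSC replicate 1 (-1.07), hiPSC replicate 3 (-1.06) or P1 replicate 2 (-1.005), with upper-quartile scaling (-1.004) and with limma on log2(FPKM + 1) (-1.285) or log2(FPKM + 0.1) (-1.29).

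KRT19 measured 140, 138 and 138 FPKM in hiPSC, 1.35, 1.23 and 1.76 in D70-RO, and 0.61, 0.40 and 0.59 in D150-RO. It was 7.62, 7.05 and 7.09 FPKM in P1 iMGC and 1.59, 1.17 and 0.52 in P5 iMGC. The hiPSC libraries lay far above all others, P1 came next, and P5 iMGC overlapped both organoid groups. KRT19 fell by 6.80 ± 0.15 on the log2 scale to day 70 (adjusted p = 1.44e-10) and by 1.77 ± 0.33 from there to day 150 (adjusted p = 0.00104). The pooled rise in iMGC over D150-RO was 3.79 ± 0.92 (adjusted p = 0.00227), on a D150-RO baseline of 31 expected counts in 3 libraries, and that of P1 alone 4.59 ± 0.21 (adjusted p = 9.40e-12), while P5 against D150-RO was not tested because too few libraries reached 1 FPKM. Between passages it fell by 2.63 ± 0.21 on the log2 scale (adjusted p = 3.52e-10), and at P5 it differed from D70-RO by 0.19 ± 0.36 (adjusted p = 0.648).

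The 5 epithelium markers, which encode the cadherin CDH1, the adhesion protein EPCAM, the claudins CLDN4 and CLDN6 and the splicing factor ESRP1, summed to 897 to 979 FPKM in hiPSC, to 6.78 to 12.6 in D70-RO and to 5.85 to 6.97 in D150-RO. All 5 fell from hiPSC to either organoid age, beside 21.1% of all genes at day 70 and 29.0% at day 150. CDH1 and ESRP1 stayed under 1 FPKM in every organoid library and met the filter through hiPSC alone. Their falls are therefore not separate evidence. In iMGC, where the keratins rose, they summed to between 0.54 and 1.57 FPKM, and CDH1, EPCAM, ESRP1 and CLDN6 were under 1 FPKM in every iMGC library. Of the 2 that could be tested between iMGC and D150-RO, CLDN6 fell, by 2.79 ± 0.29 on the log2 scale, and CLDN4 did not pass. CLDN6 met the filter there through D150-RO alone, and 23.8% of all genes fell.

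Within a library the keratin partners did not keep a fixed ratio. KRT8 per KRT18, as a ratio of FPKM, was 0.824 ± 0.019 (SD, n = 3) in hiPSC, 3.11 ± 0.38 in D70-RO, 2.13 ± 0.25 in D150-RO, 0.302 ± 0.001 in P1 iMGC and 0.373 ± 0.024 in P5 iMGC. KRT8 thus exceeded KRT18 in the organoids, and KRT18 exceeded KRT8 in hiPSC and iMGC. This ratio leaves out other keratin genes, among them the type II gene KRT7, at means of 43.5 FPKM in P1 and 52.8 in P5 iMGC. It therefore does not give the balance of the keratin types. The sum of the 8 cytoplasmic filament genes grew from between 919 and 944 FPKM in hiPSC to between 2948 and 3038 in P5 iMGC. The 3 keratins made up 78.2% ± 1.7 (SD, n = 3) of it in hiPSC, 2.49% ± 0.16 in D70-RO, 0.526% ± 0.122 in D150-RO, 10.5% ± 0.3 in P1 iMGC and 4.18% ± 0.23 in P5 iMGC. VIM held 15.2% ± 2.2 in hiPSC, 95.0% ± 0.8 in D70-RO, 83.8% ± 1.4 in D150-RO, 87.6% ± 0.3 in P1 iMGC and 95.3% ± 0.2 in P5 iMGC. NES held 14.2% ± 1.5 in D150-RO, and SYNM, DES and GFAP together were minor in all groups.

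**Figure D3:**
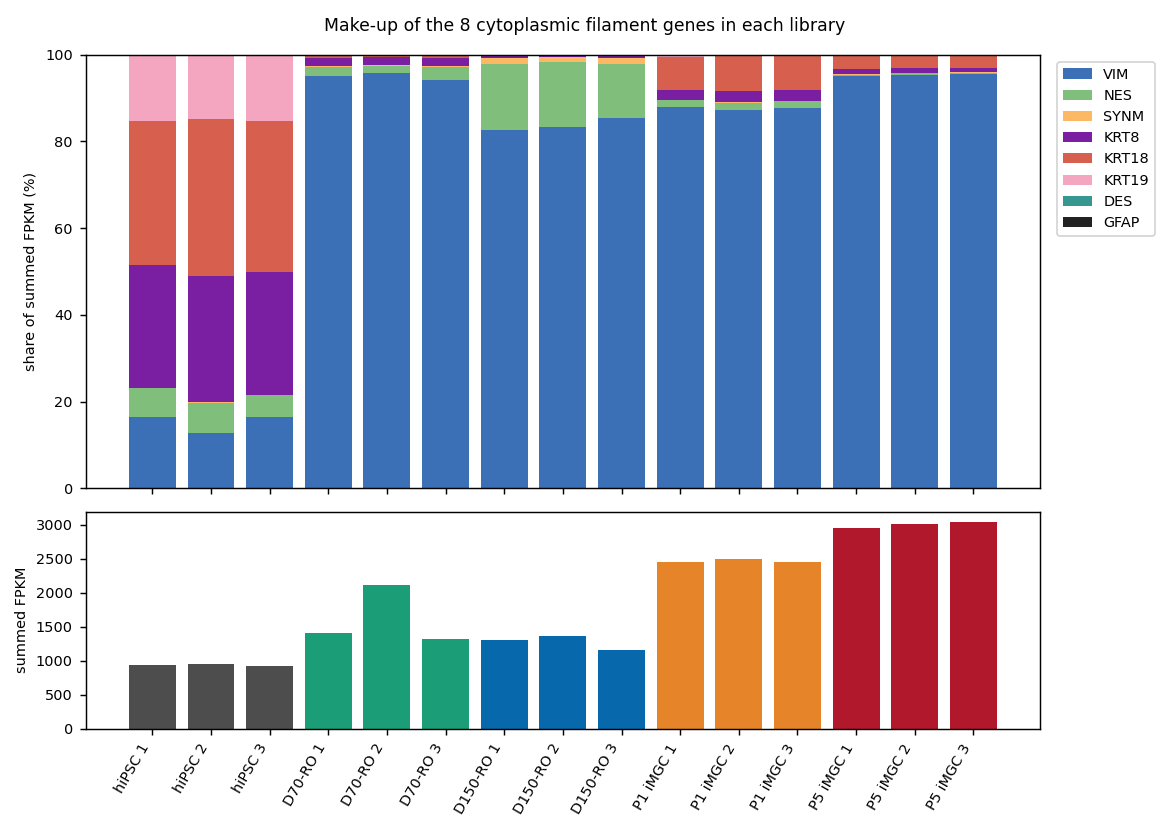
The upper bars give each library's make-up as the share (%) of the FPKM summed over the 8 cytoplasmic filament genes, and the lower bars give that sum in FPKM from 0, for the 15 libraries in group order. Keratins dominate the 3 hiPSC bars, at 76.5% to 79.9%, and VIM all other bars, with NES at 12.5% to 15.2% in D150-RO.

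The lamin genes differed in course. LMNB1, the B-type lamin found in most nuclei and reduced in senescent cells, lies on chromosome 5 from 126776623 to 126837020 on the plus strand. Its level was 92.9, 91.1 and 102 FPKM in hiPSC, 53.3, 44.5 and 59.3 in D70-RO, and 28.3, 29.9 and 27.4 in D150-RO. It was 5.76, 4.98 and 5.82 FPKM in P1 iMGC and 4.56, 3.82 and 4.15 in P5 iMGC. It stepped down through the groups with no overlap between neighbours. LMNB1 fell by 2.11 ± 0.09 on the log2 scale from hiPSC to D150-RO (adjusted p = 2.85e-10), by 1.90 ± 0.10 from D150-RO to iMGC (adjusted p = 6.24e-09), and by 3.99 ± 0.10 from hiPSC to iMGC (adjusted p = 5.59e-12). The step from hiPSC to D70-RO was -1.01 ± 0.12 (adjusted p = 1.37e-05) and sat at the 2-fold limit: it was -0.91 without D70-RO replicate 1, -0.84 without D70-RO replicate 2 and -0.91 with upper-quartile scaling, none of which passed. The step from day 70 to day 150, -1.10 ± 0.10 (adjusted p = 1.81e-05), also ended with a 2-fold null (adjusted p = 0.233). Between passages the difference was -0.34 ± 0.10 (adjusted p = 0.0116), under the limit.

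Proliferation markers moved with part of that course. The 8 genes summed to between 653 and 769 FPKM in hiPSC, 204 and 273 in D70-RO, 88.6 and 111 in D150-RO, 81.2 and 88.3 in P1 iMGC and 69.1 and 75.9 in P5 iMGC. All 8 fell from hiPSC to D150-RO, beside 29.0% of all genes, with AURKB, a mitotic kinase, down by 5.96 ± 0.17 on the log2 scale. Between D150-RO and iMGC, where LMNB1 fell, 1 of the 8 rose (CCNB1, the mitotic cyclin B1, by 1.38 ± 0.11), 0 fell and 7 did not pass. Of all genes 20.8% rose and 23.8% fell there. Their part in the LMNB1 result was not tested.

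LMNA, which encodes lamins A and C, lies on chromosome 1 from 156082573 to 156140089 on the plus strand. Its level was 19.4, 22.5 and 17.9 FPKM in hiPSC, 16.2, 19.9 and 16.5 in D70-RO, and 29.5, 29.6 and 30.3 in D150-RO. It was 88.3, 87.1 and 88.7 FPKM in P1 iMGC and 87.4, 83.2 and 85.7 in P5 iMGC. The hiPSC and D70-RO libraries overlapped, D150-RO lay above them, and the iMGC passages overlapped each other far above the rest. LMNA rose 5.11-fold in iMGC over D150-RO (2.35 ± 0.04, adjusted p = 8.37e-13) and 6.05-fold over hiPSC (2.60 ± 0.07, adjusted p = 8.14e-12). The organoid differences were -0.19 ± 0.15 at day 70 (adjusted p = 0.287) and 0.23 ± 0.09 at day 150 (adjusted p = 0.0363) against hiPSC, the latter under the 2-fold limit. Between passages the difference was 0.01 ± 0.04 (adjusted p = 0.822), and its sign turned on the FPKM scale.

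As a ratio of FPKM, LMNA per LMNB1 was 0.210 ± 0.036 (SD, n = 3) in hiPSC, 0.342 ± 0.091 in D70-RO, 1.05 ± 0.06 in D150-RO, 16.0 ± 1.3 in P1 iMGC and 20.5 ± 1.3 in P5 iMGC. The hiPSC and D70-RO groups did not overlap in this ratio, with hiPSC at 0.175 to 0.246 and D70-RO at 0.278 to 0.446.

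**Figure D4:**
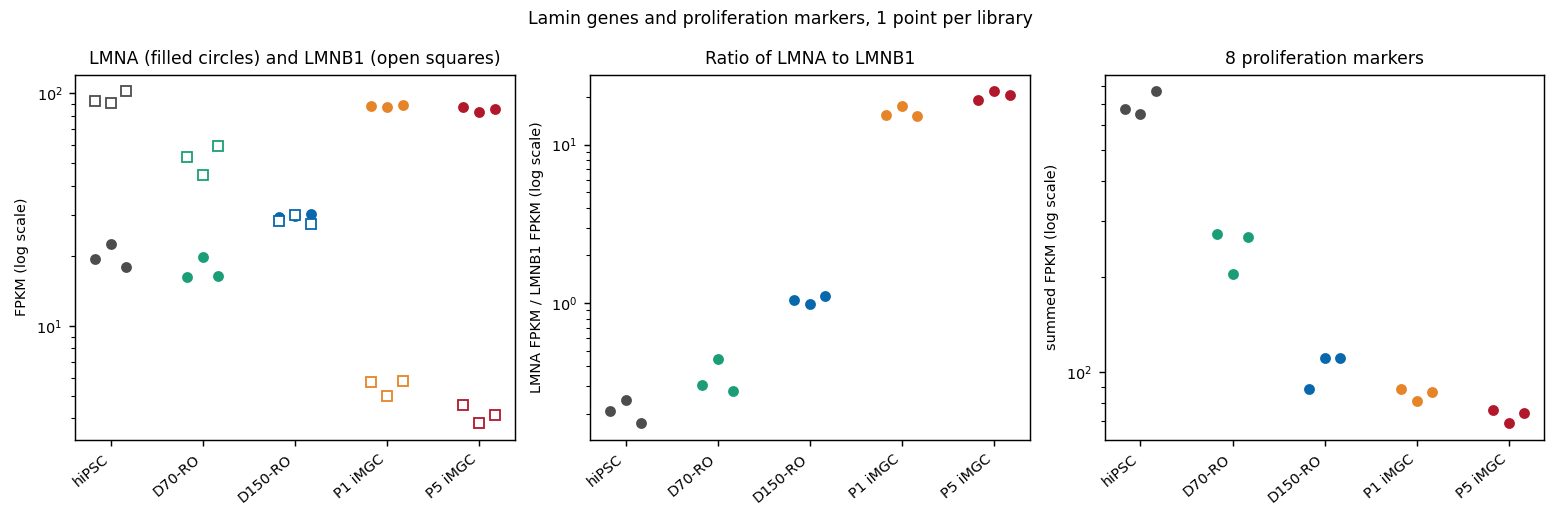
Points are the 15 libraries in 5 groups on log axes, with the FPKM of LMNA and LMNB1 on the left, the ratio of LMNA to LMNB1 in the middle and the summed FPKM of 8 proliferation markers on the right. The lamin levels cross at D150-RO, where the ratio is 0.989 to 1.11, and the ratio lies between 15.2 and 21.8 in iMGC, while the proliferation sum is 88.6 to 111 in D150-RO and 81.2 to 88.3 in P1 iMGC.

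Other genes of the filament family, a list of 30, were mostly silent: 8 of them reached 1 FPKM in some hiPSC library and 7 in each iMGC group, and most epidermal keratin genes were listed at 0. From hiPSC to D70-RO 2 of 9 tested genes rose and 2 fell, with a median log2 fold change of -0.27 over the list and 0.02 over all genes. These counts stand beside 22.5% and 21.1% of all genes. Of 5 neuronal filament genes 2 rose: PRPH, which encodes peripherin, by 7.68 ± 0.20, and INA, which encodes alpha-internexin, by 3.50 ± 0.14. The neurofilament genes NEFL (-0.77), NEFM (-0.45) and NEFH (-0.27) did not pass the 2-fold limit, and KRT7 fell by 4.65 ± 0.29 on the log2 scale. Between day 70 and day 150, 5 of 8 fell, beside 16.7% of all genes, and 0 rose, beside 16.6%. Those that fell included PRPH by 5.61 ± 0.25 and the neurofilament gene NEFL by 3.62 ± 0.26 on the log2 scale. Against hiPSC the D150-RO group had 2 of 9 higher, INA (2.90 ± 0.10) and PRPH (2.07 ± 0.31), and 5 lower, beside 29.8% and 29.0% of all genes.

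In iMGC 4 of 9 tested genes of that list rose over D150-RO and 3 fell, beside 20.8% and 23.8% of all genes, with a median of 0.24 beside -0.05. KRT7 and SYNC passed the filter there through iMGC alone, and PRPH and NEFM through D150-RO alone. KRT80, at 0.84 to 1.03 FPKM in D150-RO, also met it through iMGC. The calls of these genes are therefore not separate evidence. KRT7, the type II keratin of ducts and other simple epithelia, went from 0.07 to 0.11 FPKM in D150-RO to between 40.2 and 54.1 in iMGC (9.22 ± 0.27, adjusted p = 3.68e-11, on 8 expected counts in D150-RO). SYNC, which encodes the desmin-binding protein syncoilin, was at 0.31 to 0.47 FPKM in D150-RO and between 24.8 and 35.7 in iMGC (8.07 ± 0.16, adjusted p = 1.61e-12). INA fell by 3.58 ± 0.11 on the log2 scale, and PRPH was at 0 in all 6 iMGC libraries, at least 168-fold lower than in D150-RO if 3 counts over the group are taken as the floor. Against hiPSC 4 of 10 rose and 4 fell, beside 27.0% and 28.9% of all genes; those that fell included NEFL by 7.70 ± 0.19 and NEFM by 6.38 ± 0.11 on the log2 scale, and KRT80 rose by 6.04 ± 0.36 from 9 expected counts. In that comparison SYNC and KRT80 met the filter through iMGC alone, and NEFL, NEFM and NEFH through hiPSC alone. Between passages 0 of 7 were called, beside 2.92% of all genes, with a median of -0.16.

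The linker genes, 12 that encode plakins, plakoglobin and plakophilins, tie filaments to the membrane and to other fibres. At day 70, 1 of 10 tested rose over hiPSC, DST (1.58 ± 0.19), and 5 fell, led by PKP3 (-6.95 ± 0.36, on 8 expected counts in D70-RO) and PPL (-4.55 ± 0.22), beside 22.5% and 21.1% of all genes. From day 70 to day 150 the median of 8 tested genes was 1.08, beside -0.01 over all genes, and 4 rose, DST by 3.22 ± 0.20 and PPL by 2.72 ± 0.21 most, and JUP, plakoglobin, fell by 1.10 ± 0.08 on the log2 scale, beside 16.6% and 16.7% of all genes that rose and fell. DST, which encodes dystonin, reached 143 to 154 FPKM in D150-RO from 3.81 to 4.69 in hiPSC (4.80 ± 0.10, adjusted p = 2.26e-12), MACF1 rose by 1.18 ± 0.12, and PKP3 and EPPK1 led the 4 that fell in that comparison. There 2 of 10 rose, beside 29.8% of all genes, and 4 fell, beside 29.0%. In iMGC 4 of 8 rose over D150-RO and 2 fell, beside 20.8% and 23.8% of all genes, with a median of 0.53 beside -0.05. DST did not pass on counts (-0.24 ± 0.04), though its FPKM was 50.2 to 55.9 in iMGC, against 143 to 154 in D150-RO. The scales part for this gene. DSP, desmoplakin, which binds keratin filaments to desmosomes, rose from between 14.6 and 15.6 to between 99.7 and 142 FPKM (3.70 ± 0.14, adjusted p = 2.46e-10), and PLEC, plectin, from between 13.9 and 15.8 to between 61.9 and 69.7 (2.87 ± 0.06, adjusted p = 1.58e-12), while PPL fell by 2.36 ± 0.34 and PKP2 by 1.96 ± 0.15 on the log2 scale. Against hiPSC 4 of 10 rose, led by DST (4.58 ± 0.08) and DSP (3.09 ± 0.15), and 4 fell, led by PKP3 and PPL, beside 27.0% and 28.9% of all genes. Between passages 0 of 7 were called, beside 2.92% of all genes.

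The nuclear lamina partners are 17 genes for lamin receptors, bridges to the cytoskeleton and the enzymes that mature prelamin. At day 70, 3 of 16 tested rose over hiPSC and 2 fell, beside 22.5% and 21.1% of all genes: SYNE1, a nesprin that links the nucleus to the cytoskeleton, rose by 3.12 ± 0.21 and SUN2 by 1.91 ± 0.16, and the prelamin-processing genes ICMT and RCE1 fell by 2.10 ± 0.13 and 1.45 ± 0.20 on the log2 scale. By day 150, 3 had risen and 4 fallen against hiPSC, beside 29.8% and 29.0% of all genes, led by SYNE1 (4.51 ± 0.16) and SYNE2 (2.86 ± 0.10) upward and ICMT (-2.61 ± 0.11) and EMD, emerin (-1.79 ± 0.09), downward. Between the organoid ages 2 rose, SYNE2 (2.33 ± 0.17) and SYNE1 (1.40 ± 0.11), and 2 fell, EMD and BANF1, beside 16.6% and 16.7% of all genes. In iMGC 3 of 16 rose over D150-RO and 2 fell, beside 20.8% and 23.8% of all genes, with a median of 0.30 beside -0.05: SYNE2 dropped from between 42.5 and 58.4 FPKM to between 1.22 and 1.58 (-4.10 ± 0.15, adjusted p = 2.29e-10) and TMPO, the lamin-binding LAP2 gene, by 1.05 ± 0.08 on the log2 scale, while ICMT rose by 1.42 ± 0.05 and EMD by 1.03 ± 0.06. Against hiPSC 4 rose and 5 fell, beside 27.0% and 28.9% of all genes, with SYNE1 (5.63 ± 0.21) and SUN2 (1.92 ± 0.11) upward and RCE1 (-1.86 ± 0.13) and TMPO (-1.81 ± 0.09) downward. Between passages 0 of 16 were called, beside 2.92% of all genes.

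**Figure D5:**
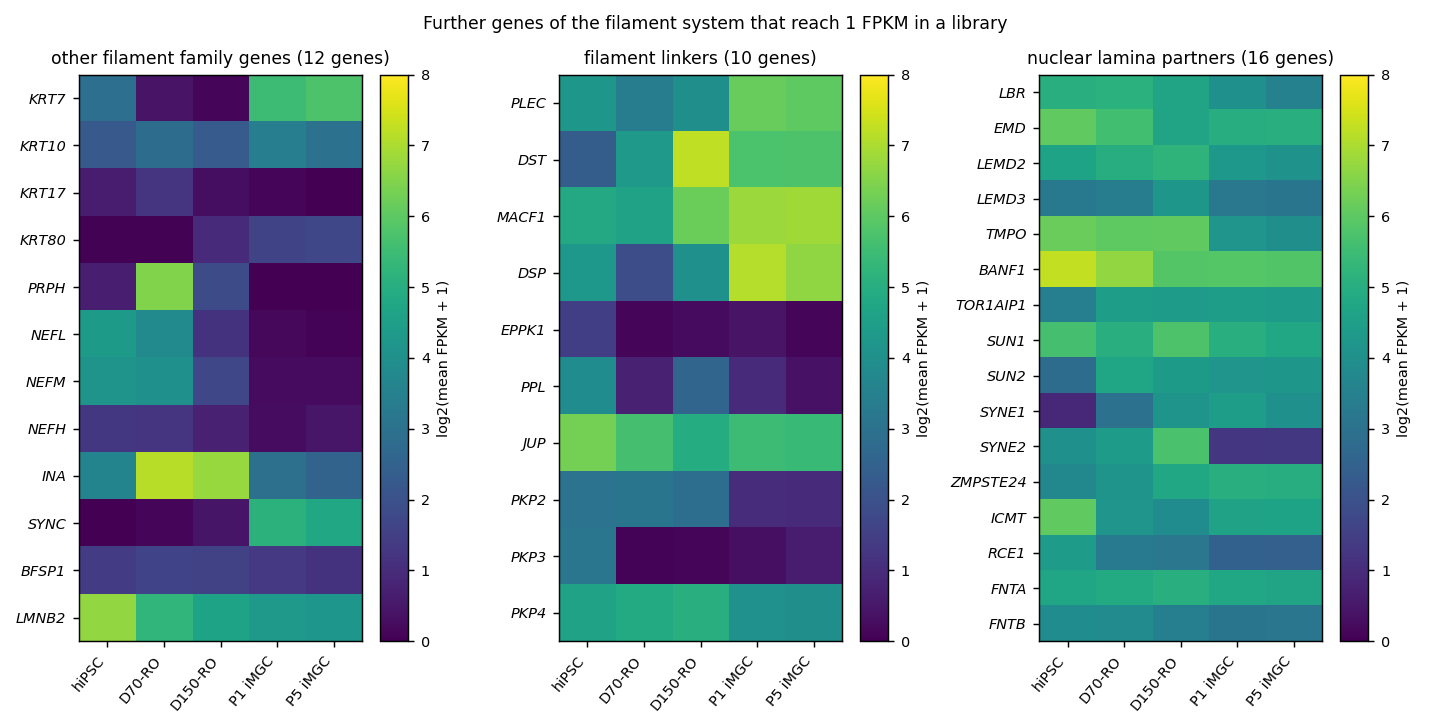
Colour gives log2(mean FPKM + 1) in each of the 5 groups for genes of the 3 further lists that reached 1 FPKM in at least 1 library (12 of 30 filament family genes, 10 of 12 linkers, 16 of 17 lamina partners). PRPH is bright in D70-RO, INA in both organoid groups, DST most in D150-RO but also in iMGC, and KRT7, SYNC, PLEC and DSP in iMGC.

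The genes closest in pattern to each member were sought among 13915 genes by Pearson correlation of log2(FPKM + 1) over the 15 libraries. The libraries fall into 5 groups, so the values describe shared group means and carry no test. VIM was most like HABP4 (r = 0.986) and HTRA1 (0.986), NES like KSR1 (0.967) and BEX1 (0.956), and SYNM like CCDC57 (0.991). GFAP had the weakest matches, ZNF749 (0.932) and KIAA1958 (0.917). DES was most like CBR3 (0.980) and FKBP10 (0.979), KRT8 like LY6E (0.990) and SCD (0.985), KRT18 like ESYT1 (0.991) and BOK (0.989), and KRT19 like YARS (0.980) and GFPT2 (0.977). LMNA had the closest match of all, TAPBP (0.996), followed by FOSL2 (0.995), and LMNB1 was most like HNRNPK (0.995) and GAL (0.994).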

How the data were processed

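Poly(A)-selected RNA of 5 groups with 3 libraries each was sequenced as paired reads. Per the labels, the authors used HISAT2, StringTie, RSEM and DESeq2; versions, genome build, annotation and strand setting are not given in the sources used here. The authors deposited expected counts and FPKM per gene; 8.21% to 10.1% of a library's expected counts were not whole and were rounded for testing. The expected counts were taken as not scaled between tables, and 2 tables were joined for tests. The third table, of 12 columns, was not used: 6 are iMGC columns with no passage in their name, and the others are D150-RO columns. Sample labels give 3 independent experiments per group and the series design 2 for hiPSC and RO, so p-values measure the spread between these libraries, which may be technical. The design also names 2 sequencing companies and a batch correction, with no batch per library; batches and groups cannot be told apart.

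Groups were compared with edgeR 4.0.16 (TMM, quasi-likelihood; R 4.3.3) over the genes that reached 1 FPKM in 3 or more of the libraries compared, using adjusted p under 0.05 and a 2-fold limit. The 6 iMGC libraries entered the pooled comparisons as 1 group with no term for passage. The spread behind those standard errors and p-values therefore includes the difference between P1 and P5. Tested on simulated data with 200 genes changed 4-fold, it recovered 99.0% to 100% of them across the 6 comparisons. That simulation changed few genes, up and down in equal number, and none near the 2-fold limit. Outside the passage comparison, 33.3% to 58.8% of all genes were called in the real data. The simulation therefore cannot show how the scaling, or calls near the limit, behave there. Alternatives used DESeq2 1.42.0, limma 3.58.1 on log2(FPKM + 1) or log2(FPKM + 0.1), other scalings and filters, a replicate block and leaving out each library. Genes named from the further lists are the top 2 rising and top 2 falling by fold change among those called without overlap in FPKM, and all where 3 or fewer were called; marker genes named for being low, and MYH11, EPCAM, CLDN4, AQP4, GLUL, SOX9, NEFM, NEFH and RLBP1, were named after their values were seen. The members, lists and tests were chosen with earlier results of these data known. Gene positions come from GENCODE 29 by gene identifier and promoters from RefSeq. The second gene closest in pattern to SYNM is not reported here.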

Additional observations from a re-analysis of the deposited data

How the results depend on the processing

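Of 913 values for the members under alternatives, 877 kept their direction and their side of the limits, 18 lost their call, 16 gained one and 2 turned direction. Both turned values are LMNA between passages with limma, at -0.04295 on log2(FPKM + 1) and -0.0434 on log2(FPKM + 0.1). Limma on log2(FPKM + 1) called 4 members between D150-RO and D70-RO in place of 7 (GFAP, KRT19 and LMNB1 were lost); the cause was not tested. It also lost DES at day 70 against hiPSC (-0.88) and, with either pseudocount, in iMGC against hiPSC (0.71 and 0.999). Leaving out each library gave 5 to 7 called members at day 70 and 6 to 7 at day 150 against hiPSC, 6 to 7 between the organoid ages, 9 to 10 for iMGC against D150-RO, 3 to 3 between passages and 7 to 9 for iMGC against hiPSC; part of the drop is members that no longer pass the filter. No clear pairing of the libraries by replicate number was seen. Correlations of same-numbered libraries ran from -0.074 to 0.337, and in 0 of 10 group pairs were all above 0.1. Of 15 libraries 8 correlated best with their own number. With 3 libraries per group these values cannot exclude a pairing. With the replicate block the counts of called members were 7, 8, 7, 10, 3 and 7, and it changed no call. Upper-quartile scaling moved the median of all genes from -0.06 to -0.18 for iMGC against hiPSC and from -0.01 to -0.11 between the organoid ages. For iMGC against D150-RO all genes split into 2704 higher and 3098 lower, and into 1341 and 4572 with limma on log2(FPKM + 1); between organoid ages the splits were 2131 and 2145 against 2250 and 1302. Between passages 332 genes were called, 694 without the filter, 161 with a 2-fold null and 152 with limma; between organoid ages that null called 2830 in place of 4276. Totals of 40 or fewer expected counts limit GFAP in iMGC, DES in the organoids and KRT19 in D150-RO.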
